A study of Mus musculus with 10 samples.

Results

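The 10 genes described here are Mthfd1, Mthfd1l, Mthfd2, Mthfd2l, Shmt1, Shmt2, Aldh1l1 and Aldh1l2 of the folate one-carbon pathway, and Phgdh and Psat1 of serine synthesis. They were taken by name from the 56748 gene identifiers in the count files, and all 10 were among the 15454 genes with enough reads to test. The set was selected on measured values of this same comparison, in which Mthfd1l had been seen to rise, and the question asked of the others was whether it rose alone. RNA was sequenced from whole hearts, with both atria, of C57BL/6 wild-type male mice that were 8 weeks old at the start. The training group held 5 mice that ran on a treadmill under forced exercise for 8 weeks, at 15 m/min for 120 min a day on 5 days a week, and the sedentary group held 5 mice of the same kind without training.

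Folate carries single carbon units between metabolites, in parallel sets of enzymes in the mitochondria and the cytosol. In the mitochondria, SHMT2 takes a carbon from serine, MTHFD2 or MTHFD2L oxidizes it, and MTHFD1L releases it as formate. Formate crosses to the cytosol, where the trifunctional enzyme MTHFD1 loads it on folate again for purine and thymidylate synthesis, and SHMT1 exchanges carbon between serine and glycine. ALDH1L1 in the cytosol and ALDH1L2 in the mitochondria burn the carbon to CO2 and make NADPH, while PHGDH and PSAT1 make serine from a glycolytic intermediate.

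In the comparison as designed, Mthfd1l did not rise alone. In edgeR's quasi-likelihood test across all genes, 4 of the 10 genes were called at a false discovery rate (FDR) below 0.1: Mthfd1l, Aldh1l2 and Mthfd2l higher after training, and Shmt1 lower. Of the 9 genes other than Mthfd1l, 3 were thus called. Once a score of 10 atrial markers, 4 of which were called between the groups, was a covariate, 0 of the 10 genes were called. Mthfd1l lost its call there too, with a log2 fold change of 0.93 against 0.98 without the covariate (edgeR adjusted p = 0.109). That fit thus does not show it rising alone. Of all genes tested, 7.01% were called, 2.75% as higher and 4.26% as lower. The median log2 fold change of the 10 genes was 0.20, with 6 above 0 and 4 below, against 0.00026 over all genes tested. Mthfd1l, whose rise chose the set, is among those 6. The middle value of the other 9 genes was 0.15, that of Psat1. The 3 higher genes code for mitochondrial enzymes and the lower one for a cytosolic enzyme, whereas the mitochondrial genes Mthfd2 and Shmt2 were not called. RNA of a whole heart cannot tell fewer cells of a type from less RNA per cell, so each value below is a level in the organ.

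**Figure D1:**
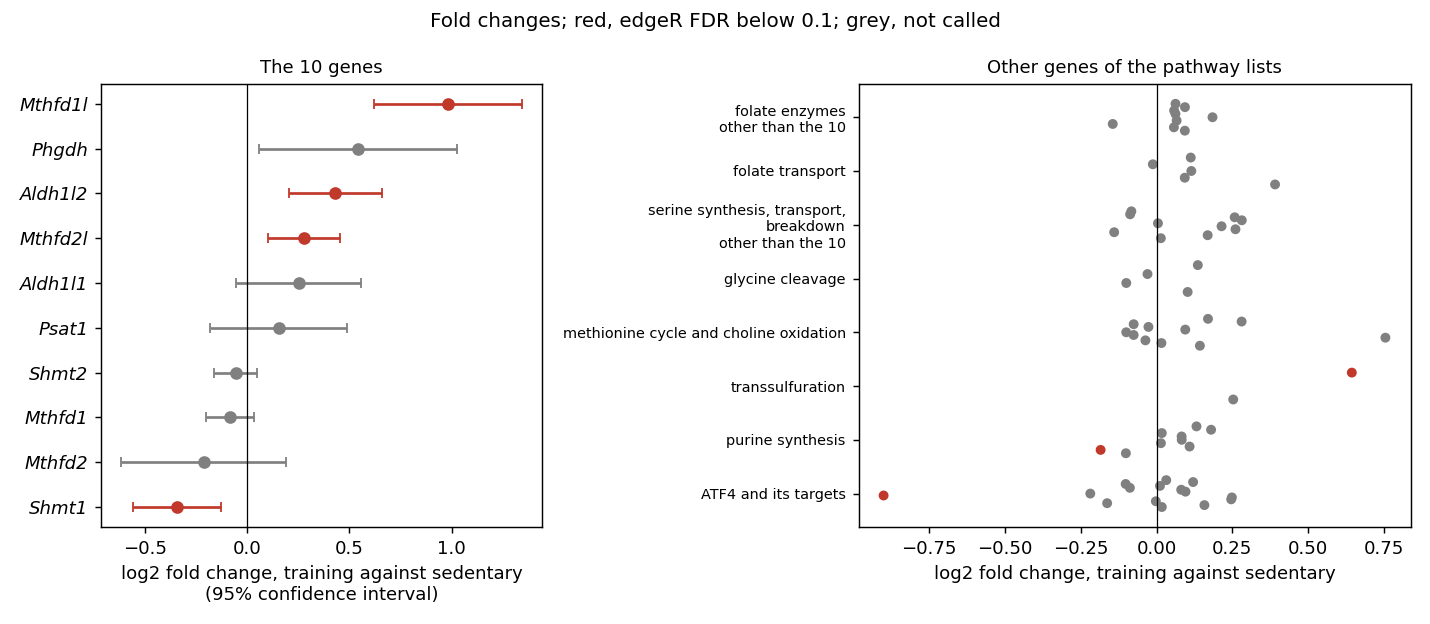
The left panel plots, for each of the 10 genes, the log2 fold change after training with a 95% confidence interval formed from the edgeR F statistic. The right panel plots the 65 tested genes of 8 related lists, 1 point a gene. Red marks an FDR below 0.1: 4 of the 10 genes and 3 of the 65 are red.

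The DNA before the start of 1 transcript, the canonical one, is shown for each of the 4 called genes. For Shmt1 it lies within the annotated gene (chr11:60661185-60708167). Where exons fill the space next to the start, as for Mthfd1l, that space is not shown. The stretches come from GRCm39, lie within the 250 bases before the start of the GENCODE M39 canonical transcript, run 5′ to 3′ on the gene's strand, and leave out any base in an annotated exon. Capitals mark a GC box, GGGCGG or its reverse complement CCGCCC. For Mthfd1l 48 bases were left (chr10:3922822-3922869, plus strand, ending 202 bases before the start), for Aldh1l2 250 (chr10:83370006-83370255, minus strand, ending at the start), for Mthfd2l 203 (chr5:91078717-91078919, plus strand, ending 47 bases before it) and for Shmt1 138 (chr11:60702155-60702292, minus strand, ending 58 bases before it).
Mthfd1l: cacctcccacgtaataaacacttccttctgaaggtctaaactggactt
Aldh1l2: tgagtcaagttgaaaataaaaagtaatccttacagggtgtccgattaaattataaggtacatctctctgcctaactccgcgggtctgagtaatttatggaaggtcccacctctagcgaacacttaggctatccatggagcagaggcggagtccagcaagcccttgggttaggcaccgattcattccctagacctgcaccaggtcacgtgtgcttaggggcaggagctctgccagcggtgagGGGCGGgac
Mthfd2l: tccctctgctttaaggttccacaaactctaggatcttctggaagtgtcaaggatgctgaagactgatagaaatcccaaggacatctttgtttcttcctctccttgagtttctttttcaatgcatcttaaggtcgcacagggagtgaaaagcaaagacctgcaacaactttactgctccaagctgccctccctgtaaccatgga
Shmt1: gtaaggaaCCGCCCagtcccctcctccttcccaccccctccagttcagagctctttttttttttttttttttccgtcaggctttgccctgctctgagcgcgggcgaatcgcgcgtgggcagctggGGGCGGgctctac
Over the full windows of 250 bases, a GC box on either strand was found before 5 of the 10 genes and 36.3% of the 21770 protein-coding genes, and a CCAAT box (CCAAT or ATTGG) before 6 of the 10 and 36.5%. TATAAA or its reverse complement was found before 2 of the 10 and 11.9% of all. The composite element of the amino acid response factor ATF4 (TGATGNAA or TTNCATCA) was found before 0 of the 10 and 3.39% of all, which says only that these letters are not in these windows. The Shmt1 window held 4 GC box matches and that of Mthfd2l none, so the called genes shared no match of these kinds. CpG counts ran from 2 in the Mthfd2l window to 16 in that of Psat1, with a median of 8 both in the 10 windows and in all windows.

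Mthfd1l (ENSMUSG00000040675, chr10:3922870-4117081, plus strand), the mitochondrial formate synthetase, was the member with the largest difference, and its values are given as a description since they chose it. Its level in CPM, the reads scaled to a library size corrected by TMM, was 2.32, 2.46, 3.00, 2.43 and 3.45 in training hearts 1 to 5, and 1.27, 1.02, 1.36, 1.56 and 1.67 in sedentary hearts 1 to 5. Every training heart was above every sedentary heart, as in 2.12% of all genes tested. Groups that did not overlap in either direction made up 5.06% of the genes, and 2.94% did so with lower training hearts. The means were 2.73 ± 0.480 and 1.38 ± 0.255 CPM (SD, n = 5 each), a log2 fold change of 0.98 with a standard error of 0.157. In fits without 1 heart its log2 fold change ran from 0.89 to 1.06. By log2 fold change it was at rank 17 of the 13117 genes whose mean reached 1 CPM. The reads behind it were few, 78 to 112 in training and 35 to 61 in sedentary hearts, and the 95% Poisson interval of the lowest training heart (1.85 to 2.88 CPM) overlapped that of the highest sedentary heart (1.28 to 2.15 CPM). These intervals cover counting error only.

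Aldh1l2 (ENSMUSG00000020256, chr10:83323314-83370005, minus strand), the mitochondrial formyl-tetrahydrofolate dehydrogenase, rose by a smaller factor from a higher count. It was at 21.7, 15.9, 24.4, 19.9 and 20.8 CPM in training hearts 1 to 5 and at 14.9, 14.5, 13.5, 17.5 and 15.8 CPM in sedentary hearts 1 to 5. Training heart 2 lay within the sedentary range, and the other 4 training hearts lay above it. The means were 20.5 ± 3.10 and 15.2 ± 1.49 CPM (SD, n = 5 each), a log2 fold change of 0.43 (SE 0.0989, edgeR adjusted p = 0.0344). Its call held in 10 of 10 fits without 1 heart, and was lost with a score of atrial markers as a covariate (log2 fold change 0.30, edgeR adjusted p = 0.380).

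Mthfd2l (ENSMUSG00000029376, chr5:91078920-91169231, plus strand), the paralog of the mitochondrial dehydrogenase MTHFD2 found in adult tissues, rose as well. Training hearts 1 to 5 were at 6.14, 5.41, 5.70, 5.57 and 6.57 CPM, and sedentary hearts 1 to 5 at 4.69, 4.79, 5.06, 5.01 and 4.68 CPM. The groups did not overlap, and the sedentary hearts lay close together. The log2 fold change was 0.28 (SE 0.0765, edgeR adjusted p = 0.0649), with means of 5.88 ± 0.471 and 4.85 ± 0.175 CPM (SD, n = 5 each). The call was not stable: it held in 2 of the 10 fits without 1 heart, those without training 2 and sedentary 1, with adjusted p up to 0.137 in the others.

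Shmt1 (ENSMUSG00000020534, chr11:60661185-60708167, minus strand), the cytosolic serine hydroxymethyltransferase, fell. It was at 7.73, 6.70, 6.05, 7.81 and 7.00 CPM in training hearts 1 to 5 and at 8.77, 10.7, 8.57, 7.80 and 8.93 CPM in sedentary hearts 1 to 5. Sedentary heart 4 was just under training heart 4, and the other training hearts were below every sedentary heart. The means were 7.06 ± 0.736 and 8.96 ± 1.08 CPM (SD, n = 5 each), a log2 fold change of −0.34 (SE 0.0942, edgeR adjusted p = 0.0629). The call held in 5 of 10 fits without 1 heart and was lost without training 3 (adjusted p = 0.142), training 5 (0.113), sedentary 2 (0.131), sedentary 3 (0.112) or sedentary 5 (0.104). The gene overlaps Top3a over 7149 bases of the same strand, where reads on both genes are left out of such counts, and Smcr8 on the other strand. Opposite-strand reads made up 8.48% to 16.6% of the reads on its exons.

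**Figure D2:**
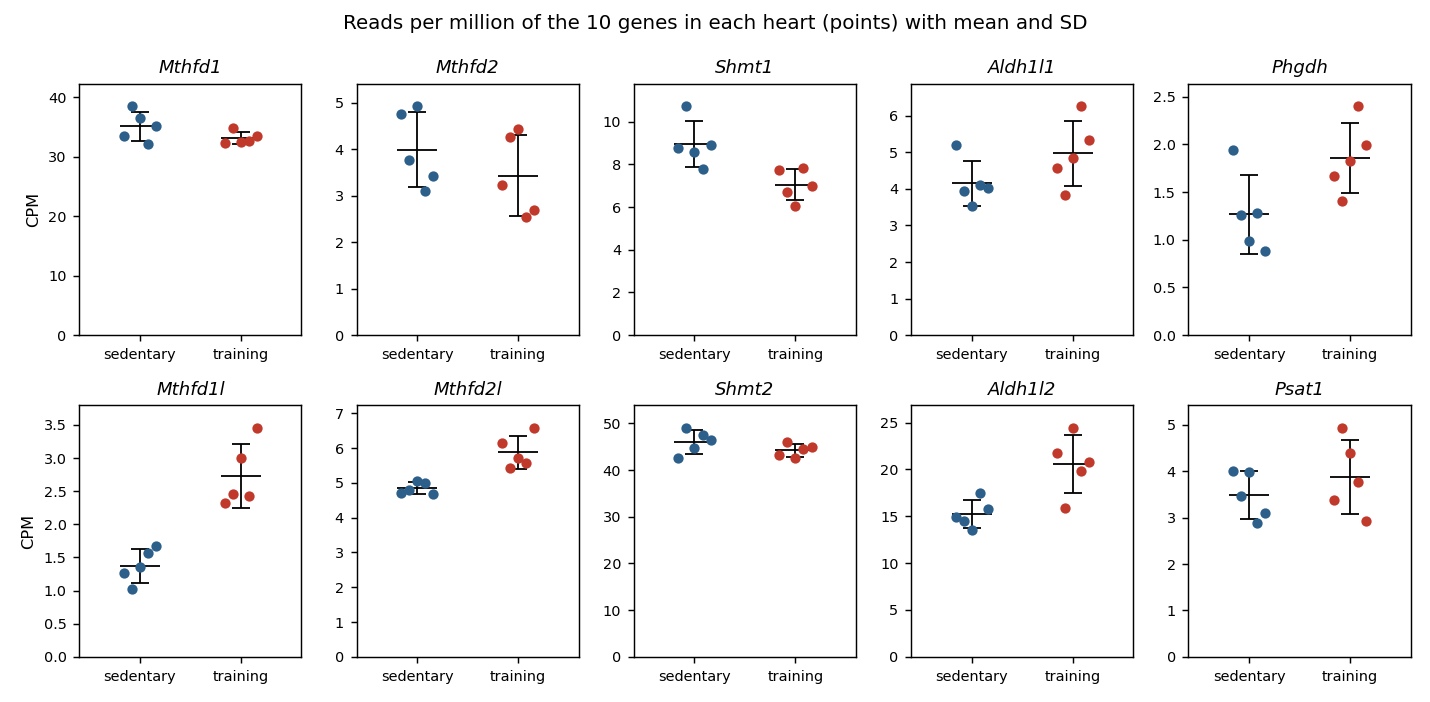
Each panel plots the level of 1 gene in CPM for the 5 sedentary (blue) and 5 training (red) hearts, with a horizontal bar at the mean and whiskers of 1 SD; every axis starts at 0. The groups do not overlap for Mthfd1l and Mthfd2l, and 4 of 5 training hearts lie outside the sedentary range for Aldh1l2 and Shmt1.

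The other members did not pass the test. Mthfd1 (ENSMUSG00000021048, chr12:76301984-76366588, plus strand), the cytosolic trifunctional enzyme, was at 32.4 to 34.8 CPM after training and 32.2 to 38.5 CPM in sedentary hearts. Its log2 fold change was −0.08 (95% confidence interval −0.20 to 0.03, edgeR adjusted p = 0.390). Shmt2 (ENSMUSG00000025403, chr10:127352266-127358323, minus strand), the mitochondrial entry enzyme, was at 42.5 to 46.0 and 42.5 to 49.0 CPM, a log2 fold change of −0.06 (interval −0.16 to 0.05, adjusted p = 0.524). Both genes were well counted, with at least 1008 reads a heart. Mthfd2 (ENSMUSG00000005667, chr6:83282673-83302890, minus strand), the dehydrogenase that is high in embryos and tumors, ranged from 2.55 to 4.44 CPM after training and from 3.10 to 4.92 CPM in sedentary hearts (log2 fold change −0.21, interval −0.62 to 0.19, adjusted p = 0.546).

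In serine synthesis, Phgdh (ENSMUSG00000053398, chr3:98220484-98255047, minus strand), its first enzyme, was at 1.67, 1.40, 1.82, 2.40 and 1.99 CPM in training hearts 1 to 5 and at 1.94, 1.26, 0.985, 1.28 and 0.877 CPM in sedentary hearts 1 to 5. Sedentary heart 1 lay among the training hearts, and the other 4 sedentary hearts lay below all of them. The log2 fold change was 0.54 (SE 0.210, edgeR adjusted p = 0.172), and without sedentary heart 1 it was 0.75 (adjusted p = 0.0367). RSEM, which shares out reads that match several places, gave 1.33 to 1.70 times as many reads for Phgdh as the unique counts, and the test on those counts did not call it either, with an edgeR adjusted p of 0.204 from the RSEM counts. Psat1 (ENSMUSG00000024640, chr19:15882039-15924701, minus strand), the next enzyme, was at 2.92 to 4.92 and 2.87 to 4.00 CPM (log2 fold change 0.15, interval −0.18 to 0.49, adjusted p = 0.608). Aldh1l1 (ENSMUSG00000030088, chr6:90463409-90577185, plus strand), the cytosolic counterpart of Aldh1l2, was at 3.84 to 6.26 and 3.54 to 5.19 CPM (log2 fold change 0.25, interval −0.05 to 0.56, adjusted p = 0.311).

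Sedentary heart 1 stood apart from its group. On the first principal component of log2 CPM, with 23.9% of the variance, it was at −6.23, within the training hearts (−21.3 to 0.968) and away from the other 4 sedentary hearts (10.9 to 22.7). Without it, 5 of the 10 genes were called, Phgdh being added, and 1490 genes were called in all against 1084. The tissue label was borne out by 8 cardiomyocyte markers, whose summed level was 57965 to 70110 CPM, and Actc1 among them was called lower. These sums ran from 57965 to 62936 CPM after training and from 61061 to 70110 CPM in sedentary hearts. All 8 edgeR estimates were negative, that of Pln only just (−0.00083), and −0.11 (log2) was their median. DESeq2 called 3 of the 8. Other marker genes moved with the groups too. The fibroblast markers Pdgfra and Lum were called higher, with 6 of 6 above 0. The endothelial marker Tie1 (1 of 6 called), the mural cell marker Rgs5 (1 of 6) and, from the skeletal muscle list, Acta1 and Ckm (2 of 3 tested) were called lower. Myh1, Myh2 and Myh4 of that list were too low to test, with group means of at most 0.063 CPM. Ckm averaged 1637 CPM after training and 1909 CPM in sedentary hearts, so these calls are not read as skeletal muscle. The part of all these markers in the values of the 10 genes was not tested. Of 10 atrial markers, 9 were above 0 and 1 below, with a median log2 fold change of 0.44. Sln, Dkk3 and Kcnj3 were called higher and Kcna5 lower. The summed level of the list was 5296 to 7877 CPM after training and 2971 to 7051 CPM in sedentary hearts. The highest sedentary value was that of heart 1. With the atrial score as a covariate 80 genes were called, and 0 of the 10, with 3 of the 10 at an unadjusted p below 0.05. The share of all genes at that cutoff was not counted for this fit, so the 3 are a description. The log2 fold change was 0.93 for Mthfd1l (edgeR adjusted p = 0.109), 0.26 for Mthfd2l (0.361), 0.30 for Aldh1l2 (0.380) and −0.20 for Shmt1 (0.521). Within the groups, the correlation with the atrial score was 0.20 for Mthfd1l, 0.10 for Mthfd2l, 0.43 for Aldh1l2 and −0.56 for Shmt1, with adjusted exact permutation p of at least 0.492 over 110 relations. It was strongest for Mthfd1 (r = −0.77, adjusted exact permutation p = 0.412) and Shmt2 (r = −0.77, adjusted exact permutation p = 0.410), which were not called.

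Compared per length of transcript, the members covered a 38.0-fold range. In CPM per kb of median RSEM length, over all 10 hearts, Shmt2 was highest at 21.8 ± 1.04 (SD, n = 10), followed by Mthfd1 at 12.7 ± 0.768 and Shmt1 at 4.77 ± 0.790. Each heart of Shmt2 was above each heart of Mthfd1, and each heart of Mthfd1 above each of Shmt1. Then came Mthfd2l at 3.67 ± 0.437, Aldh1l2 at 3.35 ± 0.677, Mthfd2 at 2.24 ± 0.513, Aldh1l1 at 1.78 ± 0.330, Psat1 at 1.56 ± 0.282, Phgdh at 0.828 ± 0.256 and Mthfd1l at 0.574 ± 0.224. From Shmt1 down, neighbours in this order overlapped between hearts. With the longest annotated transcript as length the order changed there, with Aldh1l2 at 2.97, Shmt1 at 1.92 and Mthfd2l at 1.29, while Shmt2, Mthfd1 and, at the bottom, Mthfd1l (0.357) kept their places. The gene with the largest fold change was thus the one with the lowest level, also after training, when Mthfd1l was at 0.763 ± 0.134 and Phgdh at 0.984 ± 0.197 CPM per kb (SD, n = 5 each).

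The ratio of 2 paralogs in the same heart does not depend on the scaling of libraries, so it was formed for pairs of paralogs, as a description. Mthfd2l and Mthfd2 both code for mitochondrial enzymes, and each other pair sets a mitochondrial gene over a cytosolic one. There were 0.0717, 0.0707, 0.0923, 0.0742 and 0.103 reads of Mthfd1l per read of Mthfd1 in training hearts 1 to 5, and 0.0378, 0.0266, 0.0373, 0.0487 and 0.0476 in sedentary hearts 1 to 5. The groups did not overlap, and the mean log2 ratio differed by 1.07. The Shmt2 to Shmt1 ratio was 5.59 to 7.03 after training and 4.57 to 6.11 in sedentary hearts, a mean log2 difference of 0.29 with an overlap. The ratios of Mthfd2l to Mthfd2 (1.27 to 2.44 against 0.984 to 1.61) and of Aldh1l2 to Aldh1l1 (3.17 to 5.03 against 2.87 to 4.26) overlapped as well.

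**Figure D3:**
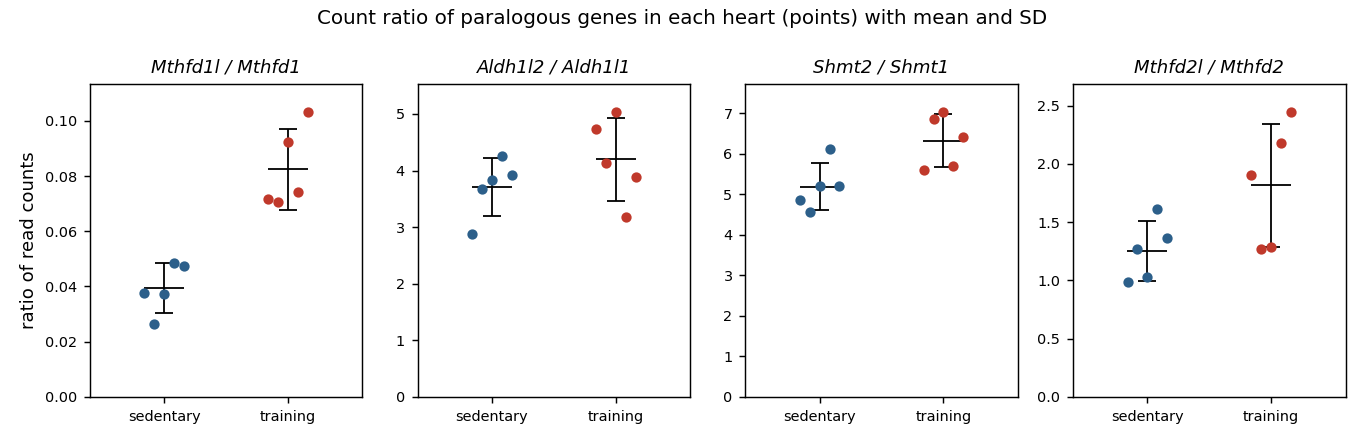
Each panel plots the ratio of the read counts of 2 paralogous genes in the 5 sedentary (blue) and 5 training (red) hearts, with a bar at the mean and whiskers of 1 SD. The ratio of Mthfd1l to Mthfd1 is the one whose groups do not overlap.

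The transcript length that RSEM estimated for Mthfd2 was longer after training, although the level of the gene did not pass the test. The measure is the mean length of a gene's transcripts, weighted by their estimated abundance. For Mthfd2 it was 1767, 1994, 1667, 1862 and 1955 bases in training hearts 1 to 5 and 1301, 1520, 1504, 1653 and 1500 bases in sedentary hearts 1 to 5. Every training heart was longer than every sedentary heart, as in 1.7% of the 12985 genes with a variable length, and 2.5% had no overlap in either direction. The means were 1849 ± 134 and 1496 ± 126 bases (SD, n = 5 each), with a two-sided exact permutation p of 0.00794, the smallest that 5 against 5 hearts can give, and an adjusted p of 0.0794 over the 10 genes. The adjusted exact permutation p stayed at 0.0794 in 2 of the 10 comparisons without 1 heart, those without training 1 and training 3, and was 0.159 in the other 8. The groups stayed apart in all 10, and the smaller designs allow few values of p. These comparisons therefore cannot show how stable the call is. RSEM knew 7 transcripts of Mthfd2: the full coding transcript of 2101 bases (ENSMUST00000005810), one of 1421 bases marked for nonsense-mediated decay, 4 with a retained intron of 358 to 627 bases, and a short coding one of 443 bases. The estimates rest on 81 to 192 reads a heart, and the shares of the single transcripts were not analysed here. For the other 9 genes the adjusted exact permutation p was 0.706.

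**Figure D4:**
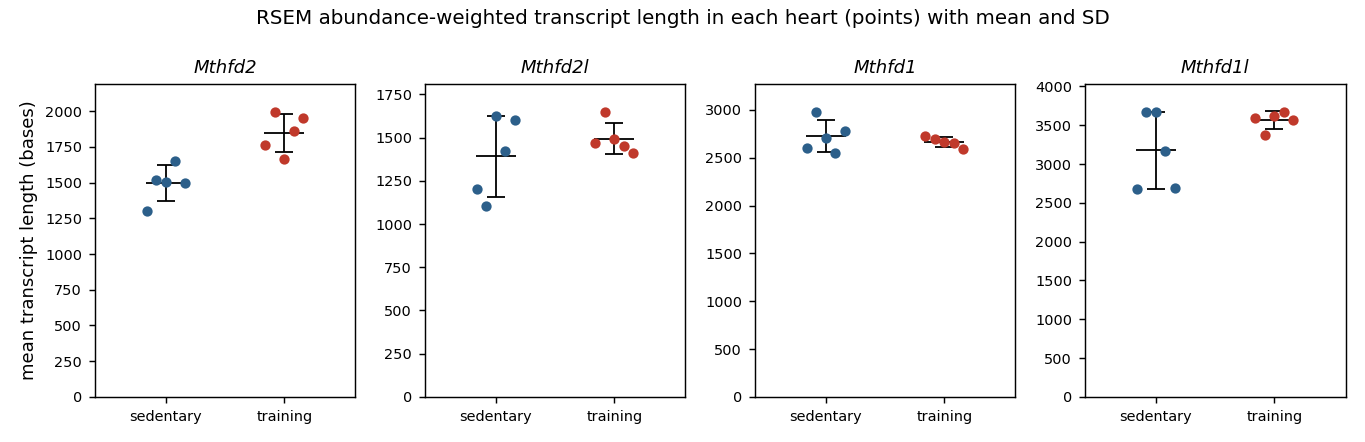
Each panel plots the RSEM abundance-weighted transcript length in bases of 1 of the 4 Mthfd genes in the 5 sedentary (blue) and 5 training (red) hearts, with a bar at the mean and whiskers of 1 SD. For Mthfd2 the training hearts sit at 1667 to 1994 bases, above the sedentary hearts at 1301 to 1653 bases.

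Within the groups, few of the 10 genes varied together. The levels (log2 CPM) were centred on their group mean and all 45 pairs were compared by an exact permutation test within groups, and 1 pair passed an adjusted p of 0.1. Aldh1l1 and Phgdh had a Pearson r of 0.87 over 10 hearts (two-sided exact permutation p = 0.00188, adjusted p = 0.0844) and a Spearman rho of 0.84 (exact permutation p = 0.00569, adjusted p = 0.256), with r = 0.67 without the 2 hearts farthest from the median of Aldh1l1. Mthfd2 and Psat1 had r = 0.86 (exact permutation p = 0.00833, adjusted p = 0.188) and rho = 0.73 (exact permutation p = 0.0335, adjusted p = 0.503), with r = 0.80 without the 2 farthest hearts. Taken alone, the training hearts gave r = 1.00 for the first pair and 0.79 for the second, and the sedentary hearts 0.85 and 0.99.

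Adipocyte markers moved with Aldh1l1. The summed level of 6 tested adipocyte markers was 74.1, 32.8, 143, 292 and 145 CPM in training hearts 1 to 5 and 192, 25.7, 26.7, 80.1 and 72.5 CPM in sedentary hearts 1 to 5. By edgeR and by DESeq2, 0 of the 6 were called, with 0 and 1 at an unadjusted p below 0.05, and all 6 log2 fold changes were above 0. Adipoq, which codes for adiponectin, was at 9.09 ± 6.81 and 5.01 ± 4.44 CPM (SD, n = 5 each). The centred score of the list had r = 0.92 with Aldh1l1 (two-sided exact permutation p = 0.000556, adjusted p = 0.0420 over 110 relations of 11 marker lists and 10 genes) and rho = 0.92 (exact permutation p = 0.000833, adjusted p = 0.0458), and r = 0.94 without the 2 farthest hearts. With Phgdh the same score had r = 0.75 (exact permutation p = 0.0197, adjusted p = 0.265) and rho = 0.75 (exact permutation p = 0.0290, adjusted p = 0.354), with r = 0.82 without the 2 farthest hearts, which did not pass the adjustment. The part of the adipocyte markers in the difference of either gene between the groups was not tested.

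**Figure D5:**
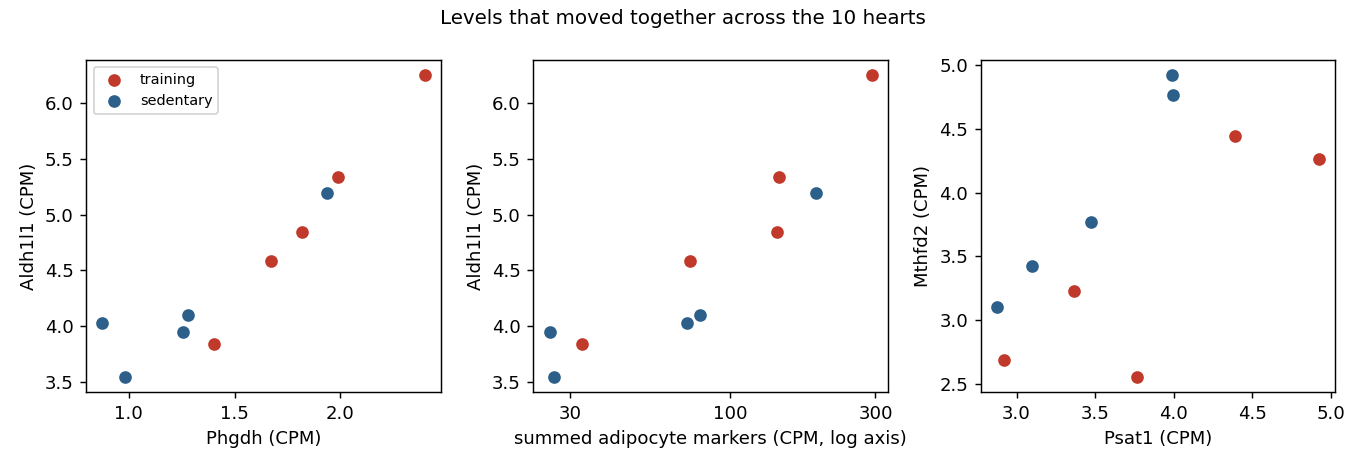
Each point is a heart, red for training and blue for sedentary. The panels plot Aldh1l1 against Phgdh in CPM, Aldh1l1 in CPM against the summed level of 6 adipocyte markers in CPM on a log axis, and Mthfd2 against Psat1 in CPM; Aldh1l1 rises with both Phgdh and the adipocyte markers, from 3.54 to 6.26 CPM.

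The genes around the pathway were followed in 8 lists with 72 genes, of which 65 had enough reads. Of these, 3 were called (4.62%, against 7.01% of all genes), with 45 above 0, 20 below and a median log2 fold change of 0.07. Of all genes tested, 50.1% were above 0. Cth, the transsulfuration enzyme that makes cysteine from cystathionine, rose from a mean of 1.70 CPM (1.26 to 2.26 over 5 sedentary hearts) to 2.66 CPM (2.20 to 3.51 over 5 training hearts), a log2 fold change of 0.64 (SE 0.191, edgeR adjusted p = 0.0816). Its other list member Cbs was at 0.25 (adjusted p = 0.628). Adss1, the muscle adenylosuccinate synthase of the purine nucleotide cycle, fell from 104 ± 7.47 to 91.1 ± 5.92 CPM (log2 fold change −0.18, SE 0.0565, edgeR adjusted p = 0.0917), and was the 1 of 9 purine synthesis genes that edgeR called. Of the 9, 7 were above 0, and 5 had an unadjusted p below 0.05: Adss1 and Adsl lower, and Ppat, Pfas and Adss2 higher. Among all 65 genes of the lists 11 did. The share of all genes tested at that cutoff was not counted, so the 5 are given as a description.

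Ddit4, an inhibitor of mTORC1 signaling listed here among ATF4 targets, had the lowest log2 fold change of the 65 genes. It fell from 76.9 ± 29.1 to 41.2 ± 13.9 CPM (SD, n = 5 each), a log2 fold change of −0.90 (SE 0.277, edgeR adjusted p = 0.0932). Sedentary heart 1, at 31.6 CPM, lay within the training hearts, which ran from 26.5 to 56.5 CPM, and the other sedentary hearts were at 74.1 CPM or more. The other 14 tested genes of that list, Atf4 itself among them (log2 fold change −0.16, SE 0.0527, adjusted p = 0.108), were not called by edgeR, while DESeq2 called Atf4 as well (adjusted p = 0.0692). Clock genes moved between the groups as well, with 8 of 13 called, and their part in the Ddit4 value was not tested.

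No gene was called by edgeR among 9 other folate enzymes, 5 folate transporters, 10 genes of serine synthesis, transport and breakdown, 4 of glycine cleavage, and 11 of the methionine cycle and choline oxidation. Of these 39 genes, 3 had an unadjusted p below 0.05, and DESeq2 called 1, Sfxn1 (DESeq2 adjusted p = 0.0897). The lowest edgeR p in each of these lists belonged to Ggh, which trims the glutamate tail of folates (log2 fold change 0.18, adjusted p = 0.289), the folate receptor Folr2 (0.09, adjusted p = 0.465), the mitochondrial serine carrier Sfxn1 (0.26, adjusted p = 0.144), the dehydrogenase subunit Dld (−0.10, adjusted p = 0.383) and the sarcosine dehydrogenase Sardh (0.17, adjusted p = 0.196). Ftcd, Mat1a, Bhmt, Bhmt2, Dmgdh, Slc7a11 and Fgf21 had too few reads to be tested. The 3 calls did not hold in every fit without 1 heart: 0 genes were called without training 4 or sedentary 3, 4 or 5, at most 2 without training 1, 2, 3 or 5 or sedentary 2, and 8 without sedentary 1.

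The genes whose log2 CPM followed that of Mthfd1l most closely over the 10 hearts, out of 13116 whose mean reached 1 CPM, were Dusp10 (r = 0.96, 0.87 after centring on the groups), Foxp1 (0.96, 0.90), Armcx2 (0.96, 0.82), Dhx9 (0.96, 0.76) and Shld1 (0.95, 0.79). Dusp10 codes for a phosphatase of stress-activated kinases, Foxp1 for a forkhead transcription factor and Dhx9 for an RNA helicase. The lowest r belonged to Gm31166 (−0.97, −0.87), a transcribed processed pseudogene, and Snap47 (−0.96, −0.94). These r are descriptions over hearts that also differ between the groups. Their fold changes were far smaller than that of Mthfd1l, with log2 fold changes from 0.13 for Dhx9 to 0.39 for Shld1 among the 5 genes that rose with it.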

How the data were processed

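Libraries were directional, made from poly-A RNA of 10 hearts and sequenced as single reads of 100 bases in 1 pool. Deposited by the authors were raw counts per gene of reads with a unique place in GRCm39 (STAR 2.7.10a), together with RSEM 1.3.3 expected counts, TPM and transcript lengths; the strand setting of RSEM is not given in the sources used here. The deposited TPM scale RSEM's estimates by transcript length and library, and were used as an alternative for levels. Reverse-strand counts were used here. Lines that name no gene were left out; multimapping reads were the largest of these. The libraries held 29461697 to 35945417 (training) and 35196993 to 39431030 (sedentary) counts on genes, and pairs within a group differed by more than counting noise.

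Groups came from the sample labels, 1 mouse a library. Of 56748 identifiers, 56017 matched GENCODE M39. In R 4.3.3, edgeR 4.0.16 was used with filterByExpr, TMM and the quasi-likelihood test, with Benjamini-Hochberg adjustment over all genes and an FDR threshold of 0.1. Standard errors are the size of the log2 fold change over the root of edgeR's F statistic. Confidence intervals apply to them a t quantile with the residual degrees of freedom, which are not the moderated ones of edgeR's test. Log2 CPM had a prior count of 2. Transcript lengths were compared by exact permutation over all assignments of 5 hearts to training, and centred correlations over 14400 within-group permutations (scipy 1.17.1). Marker scores are the mean log2 CPM of a list. The fits were checked on simulated counts.

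The members and lists were chosen with earlier results of these data known. Named were all members, from each related list the genes called or else the one with the lowest p, and the 5 genes most and 2 least correlated with Mthfd1l; Adipoq, Cbs, Atf4, Adsl, Ppat, Pfas, Adss2, the untested genes and the marker genes were added after their values were seen. Alternatives were DESeq2 1.42.0, other scalings and filters, RSEM counts, both strands, a mouse-number block, atrial and clock scores as covariates, an FDR of 0.05, and each heart left out.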

Additional observations from a re-analysis of the deposited data

How the results depend on the processing

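With the atrial score as a covariate 80 genes, 0 of the 10 and 0 of the related genes were called, and at an FDR of 0.05 the counts were 505, 2 and 0. Leaving out 1 heart gave 512 to 1490 genes, 2 to 5 of the 10 and 0 to 8 of the related genes, the highest counts coming without sedentary 1. Related genes called were 5 with DESeq2, 6 with library totals alone, 1 with RSEM counts and 5 with the clock score as a covariate. Scaling by library totals alone also turned the split of calls, from 425 higher and 659 lower (39.2% higher) to 1029 and 339 (75.2%), with the median log2 fold change of all genes shifted by 0.05; the same number of the 10, 4, was called. The cause was not tested.

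Mthfd1l was at 0.93, Mthfd2l at 0.26, Aldh1l2 at 0.30 and Shmt1 at −0.20 (log2) and no longer called with the atrial covariate, under which Mthfd1 (0.0080) and Shmt2 (0.018) changed sign. Mthfd2l also lost its call with no filter (0.27) and with the mouse-number block (0.28, adjusted p = 0.112). Residual correlations of same-numbered hearts were −0.097 to 0.159, so the numbers were not taken as pairs; the block gave 1137 genes and 3 of the 10, and changed no other call among the 10. Without 1 heart, log2 fold changes ran from 0.24 to 0.31 for Mthfd2l, from −0.39 to −0.27 for Shmt1 and from 0.43 to 0.75 for Phgdh, the last called without sedentary 1 alone. DESeq2 called the same number, 4.

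Levels per kb depended on the length used. With the longest transcript they were 10.2 for Mthfd1, 1.70 for Mthfd2, 1.29 for Mthfd2l, 1.92 for Shmt1, 15.3 for Shmt2 and 0.756 for Aldh1l1, and Aldh1l2 (2.97) then came before Shmt1; TPM were 4.44 for Mthfd2l, 23.6 for Shmt2 and 1.52 for Phgdh. The length difference of Mthfd2 stayed at 304 to 399 bases without 1 heart (adjusted p = 0.0794 to 0.159, the smaller designs allowing no lower than the former). Those of Mthfd1 (−100.2 to 5.71 bases, above 0 without sedentary 2), Aldh1l1 (−24.9 to 223, below 0 without training 2, training 3 or sedentary 2), Phgdh (−64.0 to 128, below 0 without sedentary 4) and Psat1 (−34.4 to 139, below 0 without sedentary 3) changed sign, none of them called.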

Other observations

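Among the 110 relations of marker scores with the 10 genes within the groups, 4 passed an adjusted p of 0.1, that of Aldh1l1 with the adipocyte markers being one. Psat1 was lower in hearts with a higher mean level of the 13 clock genes, r = −0.83 (two-sided exact permutation p = 0.000764, adjusted p = 0.0420) and rho = −0.88 (exact permutation p = 0.000486, adjusted p = 0.0458), and r was −0.92 without the 2 farthest hearts. The clock list holds genes of opposite phase, and 8 of its 13 genes were called between the groups. Mthfd2 had r = −0.77 with the same score (exact permutation p = 0.00819, adjusted p = 0.180) and rho = −0.70 (exact permutation p = 0.0148, adjusted p = 0.288).

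Shmt2 was lower in hearts with a higher score of 6 fibroblast markers, r = −0.87 (two-sided exact permutation p = 0.00118, adjusted p = 0.0433), rho = −0.90 (exact permutation p = 0.00243, adjusted p = 0.0891), and r = −0.80 without the 2 farthest hearts. Mthfd1 followed the 3 tested genes of the skeletal muscle list, Acta1, Ckm and Mylpf. The r was 0.72 (exact permutation p = 0.00278, adjusted p = 0.0764), with rho = 0.72 (exact permutation p = 0.0157, adjusted p = 0.288). Without the 2 farthest hearts r fell to 0.46, so it rests in part on them. Myh1, Myh2 and Myh4 of that list were too low to test, so the score is not read as a measure of skeletal muscle. These relations were found by looking through all marker lists, and each is a measurement in 10 hearts.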
